A study of Mus musculus with 8 samples.

Results

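Gene expression in Gcnf-deficient embryonic stem cells (ESCs) was set against that in primordial germ cells (PGCs) sorted from the same genotype on day 12 of differentiation. The comparison rests on 2 of the 8 arrays in the series, 1 for each condition, and on the probes that were detected on at least 1 of those 2 arrays at a detection p under 0.01. These were 11137 of the 25697 probes. With 1 array a side no test could be made, so differences are given as sizes, as the day-12 value minus the ESC value on the log2 scale, where 1 is 2-fold and 2 is 4-fold.

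RNA was hybridized to Illumina MouseRef-8 v2 bead arrays. Gcnf-deficient ESCs lack both copies of Gcnf (Nr6a1), are female by the methods, were derived from embryos that carried the Oct4-GFP(ΔPE) reporter, and were kept on irradiated mouse fibroblast feeders with LIF. Gcnf-deficient day-12 PGCs came from such ESCs grown on gelatin in serum without LIF or feeders, and were sorted by the GFP of the reporter. The wt ESCs and wt day-12 PGCs, carrying the same reporter, and Gcnf-deficient day-15 PGCs, sorted 3 days later, were used for comparison, with 1 array each. Epiblast stem cells (EpiSCs, pluripotent cells of the implanted embryo) had 2 arrays. The labels give strain C57BL/6 for every sample and call every sample a PGC, ESCs and EpiSCs included, so samples were placed by their titles. Differentiation, the change of medium, the loss of feeders and LIF, and the sort cannot be told apart in this comparison. The wt day-12 array differs from the others in that the Y-linked Eif2s3y reached 11.64 on it and was undetected on the 7 others, and chromosome 8 genes had a median of -0.44 in the wt comparison, against 0.07 in the Gcnf-deficient one. The line behind each wt array cannot be read from the methods or labels, so genotype, line and sex cannot be told apart.

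PGCs are the embryonic precursors of sperm and eggs. In the mouse, BMP signals from neighbouring tissue turn a few epiblast cells to this fate, in which Prdm1, Prdm14 and Tfap2c act, pluripotency genes are kept or regained, and Dppa3 comes on. Meiosis begins later in the fetal ovary, where retinoic acid induces Stra8. Gcnf is an orphan nuclear receptor that binds a direct repeat of AGGTCA and represses Pou5f1 (Oct4) as embryonic cells differentiate.

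The 2 EpiSC arrays served as the yardstick of spread, although that pair may be technical. The 9638 probes detected on both EpiSC arrays differed with a standard deviation of 0.26, 99% of them by less than 0.81, and at most by 1.42. Between Gcnf-deficient ESCs and day-12 PGCs the standard deviation over 9626 such probes was 0.58. The arrays of the series detected 9939 to 11273 probes each (38.7% to 43.9%), with a lowest detected log2 signal of 5.38 to 6.03. A value below that limit has no meaning as a level, and where the dimmer side was undetected the fold is written "at least", against the lowest detected signal of its array.

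In all, 198 probes were over 4-fold higher in day-12 PGCs (1.78% of the 11137) and 132 were over 4-fold lower (1.19%). Over 2-fold, 805 were higher (7.23%) and 769 were lower (6.9%). Between the EpiSC arrays 10 probes of 10482 differed over 4-fold (0.0954%) and 198 over 2-fold (1.89%). Most of the 4-fold differences had an undetected side, and probes detected on both arrays made up 53 of those higher and 24 of those lower. With undetected signals raised to the detection limit, 68 were higher and 33 lower. Probes just inside the detection limit (detection p from 0.005 to 0.01 on the better array) numbered 1021, with a median size of difference of 0.65 and 78 over 4-fold, and those just outside it (0.01 to 0.015) numbered 276, with 0.69 and 16.

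**Figure D1:**
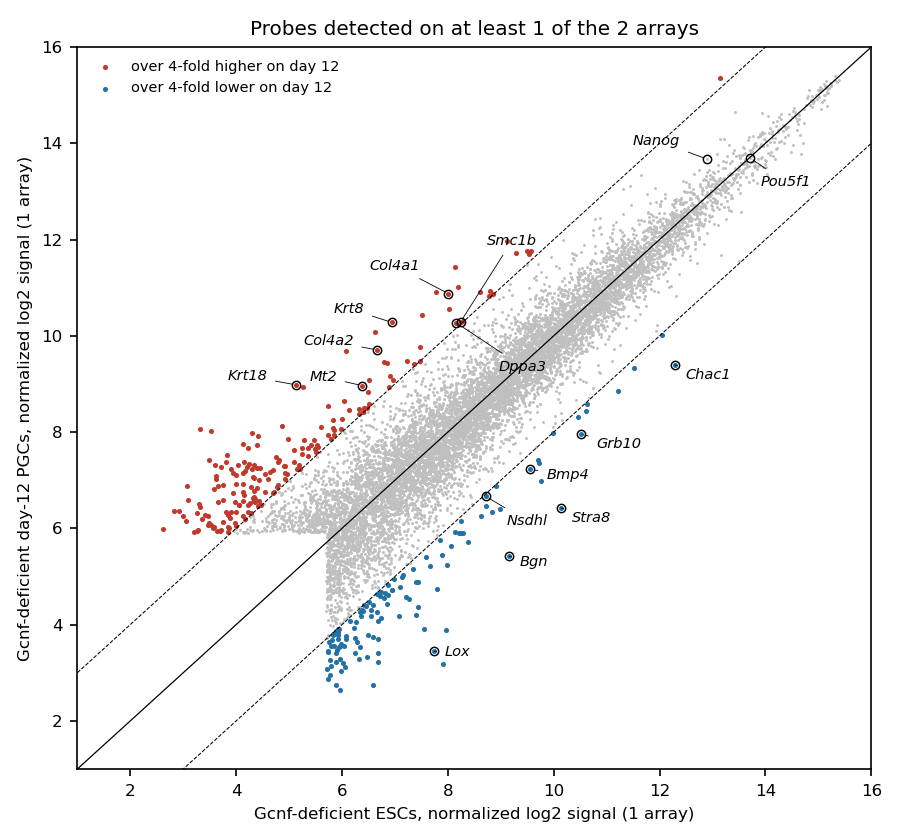
Normalized log2 signal of the 10490 detected probes with 1 gene symbol in Gcnf-deficient ESCs (x axis, 1 array) and day-12 PGCs (y axis, 1 array). Equality is a solid line and 4-fold differences are dashed lines. Red (higher) and blue (lower) points lie outside the dashed lines, most of them below the detection limit on one axis. The counts of 198 and 132 in the text are over all 11137 detected probes. Circles mark named genes, such as Krt8 and Col4a1 above the lines, Stra8 and Chac1 below them and Pou5f1 on the line of equality.

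Each gene is represented by its brightest probe, and 7709 genes were detected on at least 1 of the 2 arrays. Their median difference was -0.02, with 599 over 2-fold higher (7.77%) and 479 over 2-fold lower (6.21%). These are the figures against which the gene lists below can be read. Lists were counted with undetected signals as they stand.

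Germ cell genes were mixed, with early PGC markers higher on day 12 and Stra8 much lower. Of 11 detected PGC specification genes 5 were over 2-fold higher and 1 lower, with a median of 0.54. Dppa3 (Stella), a marker of specified PGCs that guards methylation in the egg, gave a log2 signal of 8.15 in Gcnf-deficient ESCs and 10.28 in day-12 PGCs, a 4.35-fold difference, and 10.52 on day 15. Ifitm1, an interferon-inducible membrane protein of early PGCs, gave 8.61 and 10.92 (4.95-fold), and 11.32 on day 15. Both genes thus stood well above the EpiSC yardstick and stayed high on the later array.

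Tcl1, a cofactor of Akt kinase expressed in ESCs and germ cells, gave 10.88 and 12.25. Prdm14, a regulator needed for PGC fate, was undetected in ESCs and gave 6.96 on day 12, at least 2.38-fold higher. Tfap2c, a transcription factor of the same circuit, was already high in ESCs, at 11.94, and gave 12.20 in day-12 PGCs. Other genes of the list were undetected on both arrays, among them Prdm1 and Nanos3, an RNA-binding protein that keeps migrating PGCs alive.

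Bmp4, the signal that induces PGCs, was the listed gene that was lower, at 9.56 in ESCs and 7.22 on day 12 (5.04-fold), and it was undetected on day 15. In wt cells the corresponding values were 10.79 and 7.61. Dppa3 and Ifitm1 spanned a wider range there, from 7.06 to 11.17 and from 6.65 to 11.18, because the wt ESC signals lay lower and the wt day-12 signals higher than in Gcnf-deficient cells.

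Of the gonadal germ cell genes 11 were detected, and 1 of these was over 2-fold higher and none lower (median -0.61, or -0.21 with undetected signals at their limits). Dazl, an RNA-binding protein that licenses germ cells for gamete development, gave 9.25 in ESCs and 9.59 on day 12, a difference inside the range that held 99% of probes of the EpiSC pair. The wt arrays gave 10.64 and 12.42. Ddx4 (Vasa), a germ granule helicase, was detected at 6.12 in Gcnf-deficient ESCs and undetected on day 12, and in wt cells it was undetected in ESCs and detected at 6.64 on day 12. Brdt, a testis bromodomain protein, was the gene that was higher, undetected in ESCs and 7.14 on day 12 (at least 2.70-fold).

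The meiosis list did not move as one. Stra8 gave 10.14 in ESCs and 6.43 on day 12, a difference of -3.71 (13.1-fold lower), the largest lower difference once undetected signals are set at their limits. On day 15 it gave 8.12. The wt arrays gave 7.47, 8.75 and 10.42 in the same order of stages, so ESCs were the highest of the Gcnf-deficient stages and the lowest of the wt stages.

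Smc1b, the meiotic cohesin subunit, gave 8.24 and 10.30 (4.15-fold higher), whereas Rec8, its kleisin partner, gave 8.55 and 8.32. Stag3, another subunit of that complex, gave 9.87 and 10.84. Tex11, an X-linked gene of meiotic recombination, gave 8.91 and 6.87 (4.12-fold lower). The synaptonemal complex genes Sycp1, Sycp2 and Sycp3 and the recombination genes Dmc1 and Spo11 were undetected on both arrays. Of 8 detected meiosis genes 1 was over 2-fold higher and 2 lower, with a median of -0.29.

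**Figure D2:**
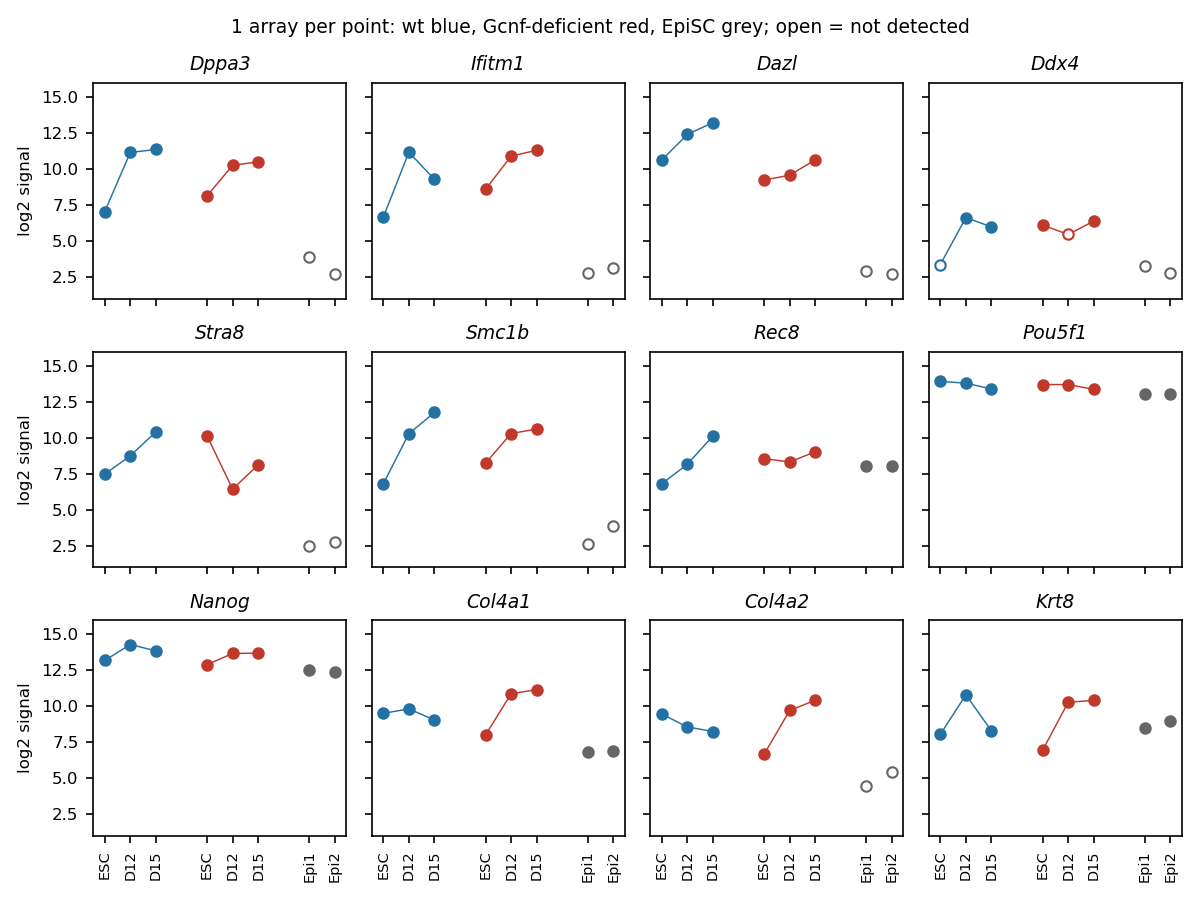
Normalized log2 signal of 12 genes on each of the 8 arrays, with wt ESCs, day-12 and day-15 PGCs in blue, the same Gcnf-deficient stages in red, and the EpiSC pair in grey. Open circles were not detected, and Stra8 lies at 10.14 on the Gcnf-deficient ESC array and at 6.43 on the day-12 array, while Dppa3, Ifitm1, Smc1b, Col4a1, Col4a2 and Krt8 lie higher on day 12.

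The Stra8 promoter was searched for the motif that Gcnf and other nuclear receptors bind. Sequences are RefSeq promoter windows of GRCm38.p6, 250 bases before to 50 after each listed start, and both strands were read. AGGTCA was found in 16.3% of all 32851 windows and in 3 of the 15 meiosis genes with a window. The Stra8 window holds it at 194 and 38 bases before the listed start on the sense strand, and the gene has another annotated start further upstream. The direct repeat AGGTCAAGGTCA was found in 2 windows (0.00609%), neither of them of a gene in the 6 lists searched. Only exact copies were counted. The paper describes a direct repeat element in the proximal promoter of Pou5f1, a gene of these lists, which the exact search did not return. A missing match therefore does not show that a gene lacks a site. The stretches, with the motif in capitals, are shown because Stra8 had the largest lower difference, and a match is a description and not a known site.
Stra8, chr6:34920742-34920771, plus strand: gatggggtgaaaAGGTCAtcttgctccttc
Stra8, chr6:34920898-34920927, plus strand: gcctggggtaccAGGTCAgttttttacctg

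Pluripotency genes were close to equal on the arrays. Pou5f1, whose reporter was used for the sort, gave 13.70 on both, and Sox2, its partner factor, 10.69 and 11.16. Nanog, a core factor that PGCs also need, gave 12.90 and 13.67. None of 12 core pluripotency genes was over 2-fold apart (median 0.08).

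Genes of the naive state, which LIF maintains in mouse ESCs, had a median of 0.39, with 4 of 17 over 2-fold higher and 2 lower. The lower genes were Socs3, the feedback inhibitor of LIF signalling, at 11.96 and 10.22, and Stat3, its transducer, at 10.31 and 9.26. Jam2, a junctional adhesion protein of ESCs, was higher by its brightest probe, at 9.53 and 11.70 (4.50-fold), whereas another of its probes gave 7.44 and 8.42. Its remaining probes lay near the detection limit and went opposite ways. One was detected at 5.98 in ESCs and undetected on day 12, and the other was undetected in ESCs and gave 6.19.

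Some genes of the primed epiblast, the later pluripotent state, were higher on day 12, with 4 of 10 over 2-fold higher, none lower and a median of 0.77. The 4 include Krt18, a keratin that is counted again in the keratin and trophoblast list below. Nodal, a TGF-beta family ligand that keeps epiblast pluripotent, gave 8.96 and 10.77, and Lefty1, its antagonist and target, 9.21 and 10.85. Otx2, a transcription factor of the primed state, gave 11.70 and 11.88, and on the wt arrays 8.46 and 11.47.

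Among the 15 largest higher differences were the keratins Krt8 and Krt18 and the basement membrane collagens Col4a1 and Col4a2. Krt8 and Krt18, the partner keratins of simple epithelia and trophoblast, went together. Krt8 gave 6.94 in ESCs and 10.28 on day 12 (10.1-fold), and 10.42 on day 15. Krt18 was undetected in ESCs and gave 8.98 (at least 9.69-fold), and 9.59 on day 15.

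In the keratin and trophoblast list 7 of 12 detected genes were over 2-fold higher and none lower (median 1.25, or 0.49 with undetected signals at their limits). Krt7, another simple keratin, was undetected in ESCs and gave 7.31 (at least 3.03-fold). Gata3, a transcription factor of trophoblast and other epithelia, and Wnt7b, a Wnt ligand, were also undetected in ESCs and gave 6.21 and 5.96, near the detection limit. The trophoblast factors Cdx2 and Elf5 were undetected on both arrays, so these defining genes of trophoblast were not part of the difference. In wt cells the keratins were also higher on day 12, by 2.76 for Krt8 and 2.57 for Krt18.

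Col4a1 and Col4a2 encode the chains of the collagen network of basement membranes. Col4a1 gave 8.01 and 10.88 (7.30-fold), and Col4a2 gave 6.67 and 9.71 (8.24-fold). On day 15 they gave 11.16 and 10.42. The wt arrays did not show this, since Col4a1 differed there by 0.31 and Col4a2 by -0.89, from 9.46 in wt ESCs to 8.57. Chromosome 8, which carries both genes, had a median of -0.44 in the wt comparison and 0.07 in the Gcnf-deficient one. Fibroblast genes, given below, also stood higher in wt than in Gcnf-deficient ESCs. The part of either in these wt values was not tested.

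The genes lie head to head on chromosome 8, and their listed starts, at 11312826 on the minus strand and 11312805 on the plus strand of GRCm38.p6, are 21 bases apart. Laminin beta 1 (Lamb1), a subunit of basement membrane laminin, was undetected in ESCs and gave 7.67 on day 12 (at least 3.90-fold). Col18a1, the source of endostatin, gave 11.30 and 13.04, Nid1, which links laminin to collagen, 8.08 and 9.73, and Hspg2 (perlecan), a heparan sulfate proteoglycan, 9.11 and 10.35. Of 20 detected basement membrane genes 6 were over 2-fold higher and none lower (median 0.56).

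Endoderm genes had a median of 1.33 (0.75 with undetected signals at their limits), with 6 of 10 over 2-fold higher and 1 lower. Apoe, the lipid carrier, gave 9.49 and 11.76 (4.83-fold), Dab2, an endocytic adaptor of visceral endoderm, 5.95 and 7.54, and Gata6, the endoderm transcription factor, 6.74 and 7.82. Sox17 and Ttr, undetected in ESCs, gave 6.13 and 6.36 on day 12, near the detection limit (Ttr at least 1.57-fold). Both enter the count over 2-fold higher through ESC values below the limit. Sox17 is an endoderm transcription factor that also specifies germ cells in humans, and Ttr encodes a thyroid hormone carrier of visceral endoderm.

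Of a panel of 9 endoderm markers 3 were detected in ESCs and 6 on day 12, and their summed linear signal was 554 and 2710. The panel includes Col4a1 and Lamb1, described above as basement membrane genes. Col4a1, at 8.01 and 10.88, made up most of both sums, so they are no separate measure of endoderm genes. Gata4, Foxa2 and Afp were undetected on both arrays. Whether other cells in the sorted sample contributed to these signals was not tested. In bulk RNA a few cells with a high level and many cells with a low one cannot be told apart. The gonadal somatic cell panel and the mesoderm panel, in which 4 of 5 genes had a probe, were undetected on both arrays.

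**Figure D3:**
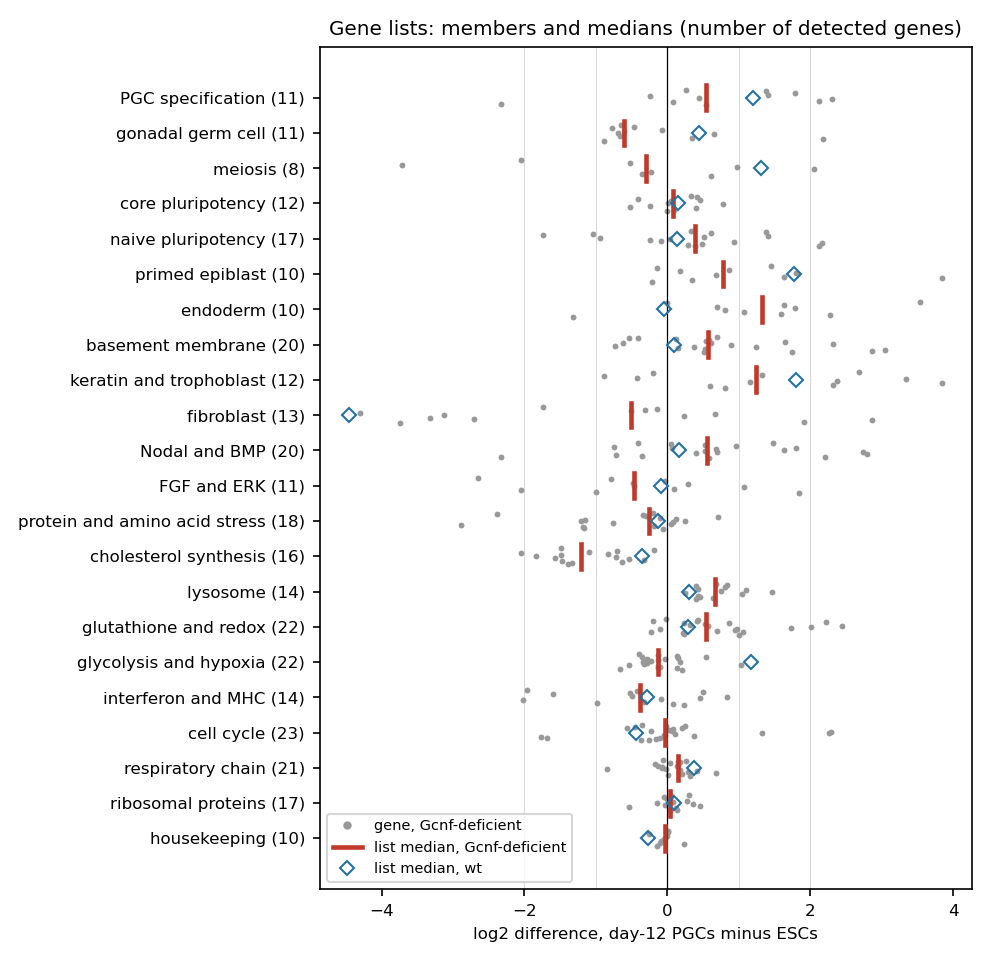
Log2 difference (day-12 PGCs minus ESCs, x axis) of the detected genes of 22 gene lists in Gcnf-deficient cells, as grey points, with the list median as a red bar and the median of the same list in wt cells as a blue diamond. Cholesterol synthesis genes lie wholly to the left of 0 and lysosome genes wholly to the right, and the fibroblast, glycolysis and meiosis medians of the genotypes lie far apart.

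Cholesterol synthesis genes were lower throughout. Cholesterol is made from acetyl-CoA by a chain of enzymes that the transcription factor Srebf2 switches on together when sterol is scarce. Each of the 16 detected genes had a negative difference, 9 of them over 2-fold, and the median was -1.21. This held for all 16 under each of the 9 other normalizations and backgrounds run on the same arrays, with 7 to 9 genes over 2-fold.

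Along the pathway, Idi1, an isomerase of the early steps, gave 8.76 in ESCs and 7.19 on day 12, and Fdps, which makes farnesyl diphosphate, 13.16 and 11.68. Lss, which closes the sterol rings, gave 10.03 and 8.20, and Cyp51, which demethylates lanosterol, 10.07 and 8.68. Msmo1 and Nsdhl, enzymes of later sterol steps, gave 12.31 and 10.83, and 8.71 and 6.67 (4.12-fold lower).

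Among the other 3 Nsdhl probes, differences of -1.58 and -1.96 were measured. The last was detected at 5.94 in ESCs, near the detection limit, and undetected on day 12. Smaller differences were seen for Hmgcs1, which supplies the pathway, at 13.98 and 13.66, and for Srebf2 itself, at 9.06 and 8.87. Nearly the same lower level stood on the day-15 array, where the median from ESCs was -1.31. In wt cells, where 13.1% of all detected probes were over 2-fold higher and 11.9% lower, the median was -0.35, with 10 of 16 genes negative and none over 2-fold lower, and Idi1 was 1.07 higher.

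The 14 detected lysosome genes went the other way, each of them positive, with a median of 0.66 and 3 over 2-fold. Gaa, the acid glucosidase, gave 8.34 and 9.80, and Hexa, a hexosaminidase subunit, 8.37 and 9.47. Npc2, which carries cholesterol out of the lysosome, gave 10.48 and 11.31. In wt cells 11 of 14 were positive, with a median of 0.31.

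Several stress genes were lower on day 12, while chaperones differed little. Atf4 is a transcription factor translated when amino acids are scarce or proteins misfold, and Chac1, Trib3, Atf5 and Asns are known targets. Chac1, which degrades glutathione, gave 12.28 in ESCs and 9.40 on day 12 (7.38-fold lower), and Trib3, a pseudokinase that restrains Atf4, gave 8.29 and was undetected on day 12 (at least 5.20-fold). Atf4 itself gave 12.18 and 11.01.

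Atf5, a related factor, gave 9.29 and 8.10, and Herpud1, a factor of protein degradation at the endoplasmic reticulum, 11.37 and 10.17. The target Asns, which makes asparagine, did not follow, at 14.40 and 14.34, and neither did the chaperones Hspa5 (8.52 and 8.42) and Hsp90b1 (13.05 and 13.16). Nupr1, a nuclear protein of the stress response that stands outside the list, gave 11.22 and 8.86. Of 18 detected genes 6 were over 2-fold lower and none higher (median -0.25), and in wt cells 4 were lower and 3 higher.

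On day 15 Chac1 gave 10.38 and Atf4 11.71, part of the way back to the ESC level. The motif TGATGNAA, which Atf4 binds with C/EBP factors, was found in 3.97% of all promoter windows and in 4 of the 17 stress genes that have a window. It stands 193 bases before the Chac1 start, 112 before that of Herpud1 and 23 before that of Asns, and in Trib3 it begins 14 bases after the start. The stretches are shown because 2 of these genes were lower and Asns was not, with the motif (or its reverse complement) in capitals.
Chac1, chr2:119351038-119351067, plus strand: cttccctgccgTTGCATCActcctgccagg
Herpud1, chr8:94386306-94386335, plus strand: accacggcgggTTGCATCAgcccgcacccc
Asns, chr6:7693214-7693243, minus strand: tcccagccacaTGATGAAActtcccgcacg

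**Figure D4:**
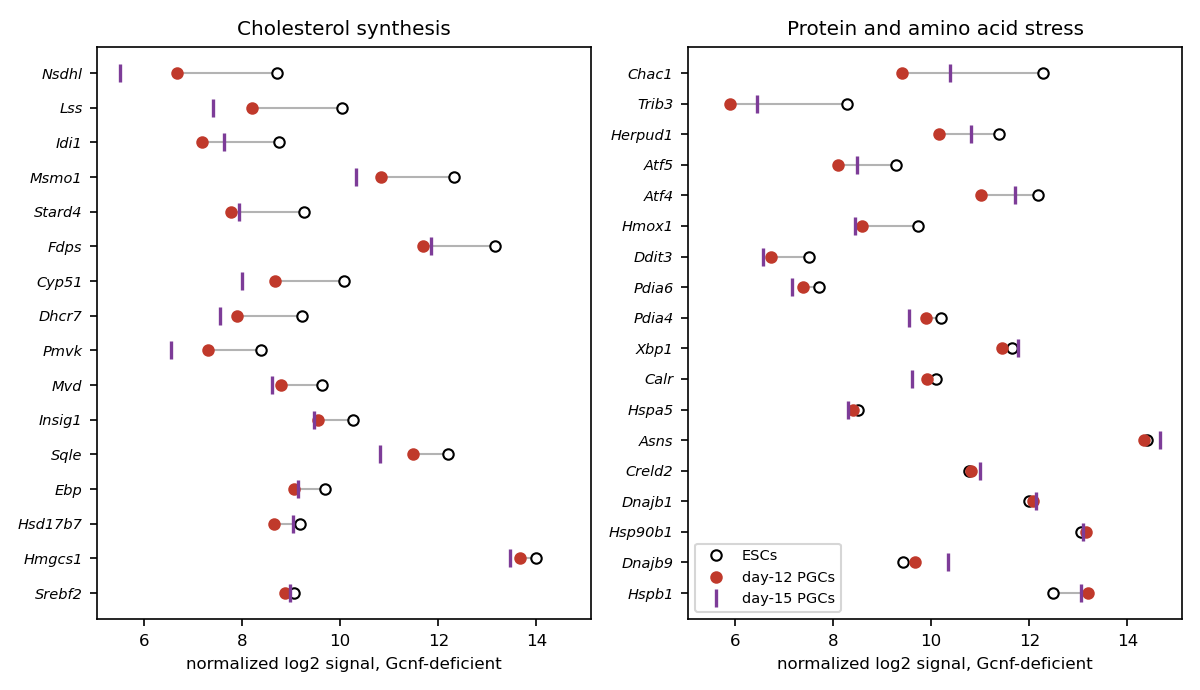
Normalized log2 signal (x axis) of cholesterol synthesis genes (left) and stress genes (right) in Gcnf-deficient ESCs (open circles), day-12 PGCs (red) and day-15 PGCs (purple bars), 1 array each, ordered by the day-12 difference. All 16 cholesterol genes lie lower on day 12, and among stress genes Chac1 and Trib3 show the largest differences, while the Asns symbols lie close together.

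Fibroblast genes are of use here because the ESCs were kept on feeders. In Gcnf-deficient cells 6 of 13 detected fibroblast genes were over 2-fold lower and 2 higher. Bgn, a matrix proteoglycan, gave 9.16 in ESCs and was undetected on day 12 (at least 9.49-fold lower), and Lox, which crosslinks collagen, gave 7.74 and was undetected (at least 3.56-fold).

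Col1a1, Col3a1 and Dcn, matrix genes of fibroblasts, were detected in ESCs at 5.97 to 6.49, near the detection limit, and undetected on day 12. Against that limit they were at least 1.49-fold, 1.04-fold and 1.47-fold lower. They enter the count of fibroblast genes over 2-fold lower only through day-12 values below the limit. Of a panel of 9 fibroblast markers 4 were detected in ESCs and 1 on day 12, with a summed linear signal of 538 and 240, and Col1a2, Postn, Lum, Pdgfrb and S100a4 were undetected on both. The part of feeder RNA in the lower genes was not tested. The 2 higher genes were Ccn1 and Ccn2, matricellular proteins induced by mechanical and Yap signals. Ccn2 gave 9.11 and 11.97 (7.27-fold), and Ccn1 6.06 and 7.98.

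In wt cells 18 of 20 detected fibroblast genes were over 2-fold lower, with a median of -4.45. The list median in Gcnf-deficient cells was -0.50 and ranged from -1.49, with a detection p under 0.05, to 0.04, with genes detected on both arrays. Lox stood at 11.43 and Bgn at 12.19 in wt ESCs, far above the 7.74 and 9.16 of Gcnf-deficient ESCs.

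Signalling genes included further large lower differences. Spry4, a feedback inhibitor of FGF signalling, gave 8.38 and was undetected on day 12 (at least 5.51-fold lower). Etv4, a transcription factor induced by FGF, gave 10.63 and 8.58 (4.14-fold), and Dusp6, the ERK phosphatase, 11.40 and 10.41. Dusp4, another phosphatase of the pathway, was higher, at 6.79 and 8.64, and Etv5 gave 9.31 and 9.40. The list of 11 detected FGF and ERK genes had 2 over 2-fold lower, 2 higher and a median of -0.47 (-0.20 with undetected signals at their limits).

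In the Nodal and BMP list 6 of 20 were over 2-fold higher and 1 lower (median 0.56). Bmp7, a BMP ligand, gave 5.74 and 7.95 (4.61-fold), and Id2, a BMP target, was undetected in ESCs and gave 7.49 (at least 3.45-fold). Bmp4, as above, was the lower gene. Gsc (goosecoid), a transcription factor of the organizer that Nodal induces, is not in this list but in that of primitive streak and mesoderm genes. It was undetected in ESCs and gave 7.41 (at least 3.27-fold). Of 4 detected streak and mesoderm genes 1 was over 2-fold higher and 1 lower (median 0.41). Among 15 detected imprinted genes 3 were over 2-fold higher and 1 lower (median 0.55, or 0.26 with undetected signals at their limits). Grb10, a growth factor receptor adaptor, gave 10.51 and 7.96 (5.84-fold lower). Cdkn1c, a cell cycle inhibitor, gave 7.22 and 9.48 (4.78-fold higher), and Igf2, a fetal growth factor, 9.96 and 11.63.

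Detoxification genes were higher as a list, with 6 of 22 glutathione and redox genes over 2-fold higher, none lower and a median of 0.55. Gsto1, an omega-class transferase, gave 9.28 and 11.73 (5.47-fold), and Gstm2, a mu-class transferase, 8.85 and 10.87 (4.04-fold). Nqo1, a quinone reductase, was undetected in ESCs and gave 7.15 on day 12 (at least 2.72-fold). Gclc, which makes the glutathione precursor, gave 6.07 and 6.30. The wt arrays gave a median of 0.30, and Gsto1 gave 10.30 on both of them.

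Among the 15 largest differences in each direction were genes outside these lists. Dcxr, a carbonyl and sugar reductase, had the largest higher difference with undetected signals at their limits, at 6.08 and 9.68 (12.1-fold), and 9.58 on day 15, and its other probe gave 6.85 and 9.43. Ccl25, a chemokine of thymus and gut, gave 6.63 and 10.08 (a difference of 3.46), and Uap1l1, a relative of a nucleotide sugar enzyme, 8.13 and 11.43 (9.83-fold). Pdzk1, a scaffold of membrane transporters, was undetected in ESCs and gave 8.94 (at least 9.40-fold).

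The metal-binding metallothionein gene Mt2 gave 6.38 and 8.97 (6.00-fold), and Cd55, which shields cells from complement, 6.03 and 8.65 (6.13-fold). The remaining genes outside the lists were Copz2, a coat protein of Golgi vesicles, Vstm2l, an immunoglobulin-domain protein, Fbp2, a gluconeogenic enzyme, and Cbr3, a carbonyl reductase, 5.73-fold to 7.52-fold higher. On the lower side, Zbtb2, a zinc finger transcription factor, gave 9.75 and 6.99 (6.77-fold), and Stc2, a secreted glycoprotein of the stress response, 8.83 and 6.34 (5.62-fold). Both differences had the opposite sign in wt cells.

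The remaining lower genes were Cntnap2, a neuronal adhesion protein, Igfbp7, a secreted protein that binds growth factors, Slc7a7, a subunit of an amino acid transporter, Mef2b, a transcription factor, and Prf1, the perforin of killer lymphocytes, between 4.53-fold and at least 5.05-fold. Cntnap2 and Igfbp7 were undetected on day 12.

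The wt arrays of the same stages share no array with this comparison and showed a larger spread. Between wt ESCs and day-12 PGCs 686 of 11264 probes differed over 4-fold (6.09%), 3.29% higher and 2.8% lower, with a standard deviation of 0.78 over probes detected on both arrays.

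Across the 10464 probes detected in both comparisons the differences correlated at r = 0.479, a description across probes that are not independent. Of 158 such probes over 4-fold higher in Gcnf-deficient cells, 67 were among the 317 over 4-fold higher in wt cells, and 23 were negative there. Of 87 over 4-fold lower, 33 were among the 143 over 4-fold lower in wt cells, and 9 were positive there.

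Glycolysis and hypoxia genes stood apart between the genotypes. In Gcnf-deficient cells the median of 22 detected genes was -0.13, with 1 over 2-fold higher and none lower, and in wt cells it was 1.17, with 11 over 2-fold higher and none lower. Aldoc, a glycolytic aldolase, gave 10.51 and 9.85 in Gcnf-deficient cells and was 4.15 higher on day 12 in wt cells. Vegfa, a hypoxia-induced growth factor, gave 10.68 and 10.29, against a wt difference of 2.47, and Slc2a1, a glucose transporter, 13.74 and 13.39, against 2.22. Hk1, a hexokinase, was the gene that was higher, at 7.46 and 8.49. The difference between the genotypes was not tested.

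**Figure D5:**
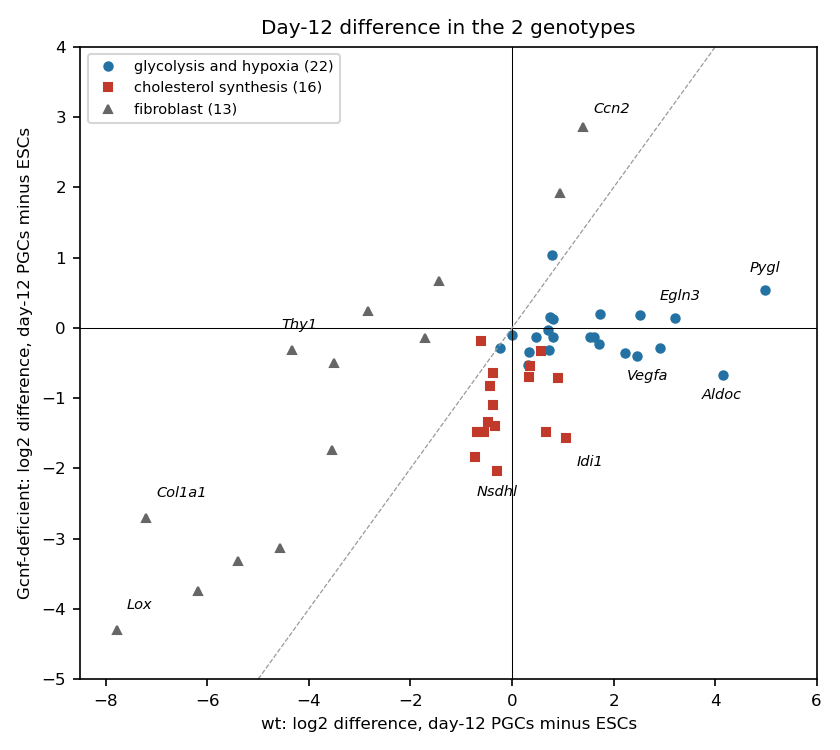
Log2 difference, day-12 PGCs minus ESCs, in wt cells (x axis) and in Gcnf-deficient cells (y axis) for glycolysis and hypoxia (blue circles), cholesterol synthesis (red squares) and fibroblast genes (grey triangles), with equality as a dashed line. Glycolysis genes lie along 0 in Gcnf-deficient cells and spread up to 4.98 in wt cells (Pygl, undetected in wt ESCs), and cholesterol genes lie below 0 in Gcnf-deficient cells on both sides of 0 in wt cells.

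From day 12 to day 15 Gcnf-deficient PGCs differed less than ESCs from day-12 PGCs, with 55 of 10979 probes over 4-fold apart (0.501%) and a standard deviation of 0.37 over probes detected on both arrays, still above the 0.26 of the EpiSC pair. Of the named genes, Stra8 was 1.70 higher on day 15 than on day 12, Ifi27 1.64 higher and Ccn2 1.51 higher. Ifi27, an interferon-induced gene, gave 12.04 in ESCs, 10.02 on day 12 and 11.66 on day 15. Fbp2 differed by -1.54, and Bmp4, at 7.22 on day 12, was undetected on day 15. These values share the day-12 array with the main comparison.

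Nr6a1 itself gave 11.03 in Gcnf-deficient ESCs and 9.94 on day 12. Neither the labels nor the methods place its probe inside or outside the deletion, so these levels are no check of the genotype. Housekeeping genes (median -0.04 of 10) and ribosomal protein genes (0.04 of 17) had no member over 2-fold apart. Of the Y-linked genes Eif2s3y and Kdm5d, and Xist, the RNA that silences an X chromosome, none was detected on either array.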

How the data were processed

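Sorted PGCs, ESCs and EpiSCs were profiled on bead arrays. The authors read the arrays with BeadStudio 3.2 and deposited signal intensities together with detection p-values for each probe. A second deposited table gives the authors' log2 values, background-corrected with the RMA model and quantile-normalized. Here the deposited intensities were processed by the same steps (RMA background model, log2, quantile over 8 arrays) in R 4.3.3 with limma 3.58.1, and the outcome correlated with the authors' log2 values at r = 0.998 (median 4.72, theirs 3.20). The script that counts 4-fold differences was run on simulated data in which only clearly detected probes were changed. That run does not bear on differences with an undetected side, which most of the 4-fold differences have.

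Of 25697 probes, 23978 had 1 gene symbol and 1719 had none or several. They cover 16593 genes, and 4777 of these have several probes, of which the brightest was used. The slide of each array was not used here. The number of arrays limits the precision.

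Genes were named if they were markers of the comparison, genes the paper names, among the 15 largest differences in each direction with undetected signals at their limits, or members of 40 gene lists. The members and lists were chosen with earlier results of these data known. The alternatives were other backgrounds, normalizations, detection rules and limits, and leaving out an EpiSC replicate.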

Additional observations from a re-analysis of the deposited data

Results flagged for a closer look

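Among the named genes and list members, 7 were over 2-fold apart in opposite directions in the 2 genotypes between ESCs and day-12 PGCs. Each condition had 1 array, and the difference between genotypes was not tested. Of all detected probes 14.1% were over 2-fold apart in either direction in Gcnf-deficient cells and 25.1% in wt cells. Opposite directions were not counted over all detected genes, so whether 7 is many cannot be read from these values. Stra8 differed by -3.71 in Gcnf-deficient cells and by 1.27 in wt cells. Zbtb2 differed by -2.76 and 1.15, and Stc2 by -2.49 and 1.78. Idi1, of the cholesterol pathway, differed by -1.57 and 1.07, and Ier3, an immediate early survival factor, by -1.19 and 1.41. Cdkn2b, a cell cycle inhibitor that was undetected in Gcnf-deficient ESCs, differed by at least 1.83 and by -1.75. Ctsh, a lysosomal protease, differed by 1.04 and by -1.17, the latter against an undetected wt signal set at its limit. The wt day-12 array carried a Y-linked signal that the other arrays did not, and its part in these values was not tested.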

How the results depend on the processing

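Counts of probes over 4-fold apart depended on how dim signals were treated. Against 198 higher and 132 lower, neqc background gave 89 and 45, an offset of 50 gave 31 and 16, and no background correction gave 15 and 6. Probes detected on both arrays gave 53 and 24, and undetected signals raised to the detection limit, a setting chosen after seeing the data, gave 68 and 33. A 2-fold limit gave 805 and 769. Without a detection filter 220 probes were lower, and with 1 probe per gene 85 were. The authors' table (178 and 93), median scaling (200 and 116), the 6 ESC and PGC arrays normalized alone (198 and 131), the 2 compared arrays alone (189 and 120), probes detected on the brighter side (198 and 132) and detection p under 0.05 (259 and 183) stayed within 1.5 times the counts, as did leaving out either EpiSC replicate (198 higher, 131 to 132 lower). Of 65 named genes over 4-fold apart, 585 of 585 values under the alternatives kept their direction, and 136 moved by more than the standard deviation of the EpiSC pair. These genes were taken for their large differences, and the alternatives reprocess the same arrays. A change of direction was therefore unlikely from the start, and the kept direction is no measure of reproducibility. No paired analysis was possible because each condition of the comparison has 1 array. Signals near the detection limit are the least precise.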

Other observations

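Gene groups not described above gave further values for Gcnf-deficient cells. The E-type cyclins, which act at entry into S phase, were lower on day 12, Ccne1 at 10.02 in ESCs and 8.33 on day 12 and Ccne2 at 7.82 and 6.05. The D-type cyclins differed little, Ccnd1 at 11.36 and 11.20 and Ccnd3 at 12.55 and 12.44, and Cdkn2a, a cell cycle inhibitor, gave 6.98 and 8.31. The cell cycle list as a whole had a median of -0.04 over 23 genes, with 3 over 2-fold higher and 2 lower. Among targets of the tumour suppressor p53, Bbc3 (Puma), a promoter of cell death, gave 9.91 and 11.03, Phlda3, an inhibitor of Akt, 9.72 and 10.79, and Mdm2, which degrades p53, 11.33 and 12.10, whereas Eda2r, a receptor of the TNF family, was detected at 7.02 in ESCs and undetected on day 12. Of 15 detected targets 2 were over 2-fold higher and 1 lower, and the median was 0.19.

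Interferon genes were lower in part, with Ifi27, a mitochondrial interferon-induced protein, at 12.04 and 10.02, Usp18, which removes the modifier Isg15, at 9.66 and 7.69, and Isg15 at 7.74 and 6.14. Of 14 detected genes 3 were over 2-fold lower and none higher. Zscan4c, a marker of the transient state of ESCs that resembles the early embryo, gave 10.16 and 8.25. Among Wnt genes Sfrp1, a secreted inhibitor, gave 8.28 and 10.31, and Lef1, a nuclear effector, was detected at 6.68 in ESCs and undetected on day 12, whereas in wt cells it was undetected in ESCs and at least 2.19 higher on day 12. Of 14 detected adhesion genes 2 were over 2-fold higher and 1 lower (median 0.24). The higher genes were Cldn4 and Cldn3, which encode claudins of tight junctions, with Cldn4 at 9.50 and 11.46 and Cldn3 undetected in ESCs and at 6.27 near the detection limit on day 12 (at least 1.48-fold). Inhbb, an activin and inhibin subunit, was detected at 7.90 in ESCs and undetected on day 12 (at least 3.96-fold lower), and Gbx2, a homeobox factor of ESCs and hindbrain, gave 9.98 and 7.97. Tek, a receptor of endothelial cells, gave 5.79 and 7.85, and Fst, which binds activin, was undetected in ESCs and gave 6.27. Rxra, a partner receptor for retinoic acid signalling, gave 6.31 and 8.47. Of 3 detected retinoic acid genes it was the only 1 with a positive difference, and the list median was -0.17. The respiratory chain (21 genes, median 0.14) and apoptosis regulators (12 genes, median 0.04) had no member over 2-fold apart.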
